A study of Mus musculus with 120 samples.

Results

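The cytoplasmic fraction of mouse liver was compared with whole liver of the same mice. The comparison holds 24 of the 120 libraries of the series: 12 libraries of cytoplasmic total RNA (CT) and 12 libraries of total RNA from unfractionated liver (UT), all from wild-type (WT) mice. They were chosen by their labels alone, and a CT library was paired with the UT library of the same time and replicate number. Each pair was treated as a single liver. Livers came from male C57BL/6J mice aged 8 to 12 weeks, kept in alternating light and dark phases of 12 h and fed at night only for the last 3 days, and 2 mice were taken every 4 h at 6 times from ZT0, when the lights went on, to ZT20. For CT, pieces of the large lobe were homogenised and spun through dense sucrose, and the RNA left above the nuclear pellet was precipitated with ethanol. For UT, separate and smaller pieces were snap-frozen and extracted whole. Both kinds of library were depleted of ribosomal RNA and kept RNAs with and without a poly(A) tail. Rat liver RNA was added to CT as a spike-in and not to UT. The homogenisation, the ethanol step, the spike-in and the fraction itself cannot be told apart in this design. The 24 matching libraries of mice that lack both cryptochrome repressors of the clock (Cry1-/- Cry2-/-, here CryKO) were used as a second set of livers.

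Messenger RNA is made and spliced in the nucleus, leaves through nuclear pores, and is then read by ribosomes until it is broken down in the cytosol. Whole liver holds both compartments, so an RNA that is mostly cytoplasmic is concentrated only a little by fractionation, whereas an RNA that stays in the nucleus can be depleted strongly. RNAs known to stay in the nucleus include Malat1 and Neat1, which mark nuclear speckles and paraspeckles, small nucleolar RNAs, which guide the modification of ribosomal RNA, small Cajal body RNAs, which do the same for spliceosomal RNAs, and transcripts that still carry introns. A log2 ratio below 0 means lower in CT than in UT. In bulk tissue fewer cells of a type and less RNA per cell cannot be told apart.

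Of the small nucleolar RNAs, a pair of each class is shown whole, among them Snord21, which had the lowest ratio of its list, since the sequence tells which class each belongs to. Capitals mark the box C (TGATGA) and box D (CTGA) letters of a C/D RNA, or the ACA letters 3 bases before the end of an H/ACA RNA. Rnu12, the U12 RNA of the minor spliceosome, is shown beside them because it was higher in CT, and has no marked letters. Sequences were read from the GENCODE transcripts of GRCm38.
Snord21: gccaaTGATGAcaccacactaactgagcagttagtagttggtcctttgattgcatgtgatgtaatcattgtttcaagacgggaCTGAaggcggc
Snord99: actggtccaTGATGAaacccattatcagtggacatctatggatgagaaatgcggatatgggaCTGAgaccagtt
Snora73a: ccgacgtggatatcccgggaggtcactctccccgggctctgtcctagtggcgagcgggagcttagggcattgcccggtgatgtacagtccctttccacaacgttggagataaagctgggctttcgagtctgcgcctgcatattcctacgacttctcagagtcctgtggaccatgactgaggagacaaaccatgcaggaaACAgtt
Snora78: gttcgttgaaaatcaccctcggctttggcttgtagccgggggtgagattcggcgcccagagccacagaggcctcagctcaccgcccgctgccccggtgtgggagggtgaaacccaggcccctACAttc
Rnu12: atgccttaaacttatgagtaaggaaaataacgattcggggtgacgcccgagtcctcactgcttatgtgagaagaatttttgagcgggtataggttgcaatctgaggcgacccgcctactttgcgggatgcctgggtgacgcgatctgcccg
Snord21 lies at chr5:107904555-107904648 on the plus strand, inside the ribosomal protein gene Rpl5. Snord99 lies at chr4:132310691-132310764 on the plus strand inside the host gene Snhg12, and Snora73a at chr4:132352775-132352979 on the minus strand inside Rcc1 and Snhg3. Snora78 lies at chr17:24719676-24719803 on the minus strand inside Snhg9, and Rnu12 at chr15:83149644-83149794 on the plus strand with no host. Snord21, Snord99 and Snora73a overlap annotated exons of Rpl5, Snhg12 and Snhg3 on the same strand, so that some of their reads can fit either transcript. Searched on the RNA strand only, TGATGA in the first 20 bases together with CTGA in the last 15 was found in 15 of 29 tested Snora and Snord genes (51.7%) and in 305 of all 1507 annotated snoRNA transcripts (20.2%). ACA in the last 8 bases was found in 13 of those 29 genes (44.8%) and in 706 of the 1507 transcripts (46.8%). A match is a description and not a mapped element. Snord21, Snord99, Snora78, Scarna3a, Rnu11, Tmsb10 and the hosts Rpl5, Snhg12 and Snhg3 were chosen for naming after their values were seen.

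The libraries held 6.8 to 14.44 M mRNA counts in CT (median 12.535 M) and 20.61 to 31.69 M in UT (median 25.775 M), so that genes of few counts are measured less well in CT. Levels below are CPM, a gene's counts scaled to a fixed total of mRNA counts after TMM normalisation. They follow RNA mass and not molecules, so levels of different genes are not compared. Of the hepatocyte markers all 6 were in the tables, and their summed level was 31100 to 73200 CPM in CT and 33800 to 97800 CPM in UT, counted against library size alone. Markers of T and NK cells summed to at most 2.86 CPM in CT and 1.79 CPM in UT, and the 1 neutrophil marker in the tables to at most 8.77 and 3.91 CPM. No gene of the mitochondrial genome was among the rows used here.

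Both libraries of 1 liver and a single CT library stood apart, by genes chosen after their values were seen. In the ZT4 replicate 1 liver Alb, the albumin gene, was at 6870 CPM in CT and 11300 in UT, against 27300 to 48700 CPM in the other CT libraries and 39600 to 69300 in the other UT libraries. The CT library labelled ZT0 replicate 2 had 64.7 CPM of the clock repressor gene Nr1d1, against 2.66 CPM in the UT library of the same label. The other ZT0 liver had 2.33 CPM in CT and 6.62 CPM in UT. Across genes, the log2 ratio of the ZT0 replicate 2 liver departed from the mean of all livers with an SD of 0.744, against 0.403 to 0.6 in the other 11. The CT libraries of ZT0 replicate 2 and ZT4 replicate 2 were also the shallowest, with 7.36 and 6.8 M counts. They held the highest CT levels of several short RNAs, as given for some of them below. Rps14 was at 1140 and 1110 CPM in them, and the next CT library had 619. Rps7, Rpl35, Eef1b2, Atp5j2, Cox6c and Mtln also had their highest CT levels in these libraries. The part of depth in those levels was not tested. All labels were kept, and counts are also given without ZT0 replicate 2 and ZT4 replicate 1.

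Of 11521 genes tested, 848 were higher in CT (7.36%) and 1149 lower (9.97%) at an adjusted p under 0.01 and an absolute log2 ratio above 1, by edgeR's quasi-likelihood test with the liver as a block and Benjamini-Hochberg adjustment. These genes are called higher or lower throughout. With no minimum fold, 3796 genes (32.9%) passed the adjusted p as higher and 4086 (35.5%) as lower, which is what is meant below by higher or lower at any fold. Beyond a log2 ratio of 2 there were 36 higher genes (0.312%) and 131 lower ones (1.14%), so the largest differences lay mostly on the depleted side. The quartiles of the log2 ratio over all genes were -0.55 and 0.44, and its 5th and 95th percentiles -1.3 and 1.16. The libraries did not overlap for 2182 genes (18.9%): in 1129 (9.8%) every CT library lay above every UT library, and in 1053 (9.14%) every CT library lay below every UT library. The shares of all genes in this paragraph belong beside each list count below. Without the ZT0 replicate 2 and ZT4 replicate 1 livers, 818 genes were called higher and 1113 lower, and these include 787 and 1057 of the genes above.

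The split depends on the scaling, because these are relative amounts. TMM put the median log2 ratio of all genes at -0.03, library size alone at -0.18, and the size of mRNA and pre-mRNA counts together at 0.18. Of all called genes 42.5% were higher in CT with TMM, against 26% with library size alone (562 higher and 1598 lower) and 66.6% with mRNA and pre-mRNA together (1373 higher and 688 lower).

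Levels in nuclear total RNA and cytoplasmic poly(A) RNA, which the comparison did not use, were set side by side, a contrast in which compartment and poly(A) selection cannot be told apart. Mean CPM was higher in nuclear total RNA than in cytoplasmic poly(A) RNA for 1142 of the 1149 lower genes (99.4%), for 134 of the 848 higher genes (15.8%) and for 8327 of all 11521 genes (72.3%). The median log2 of nuclear total over cytoplasmic poly(A) RNA, with 0.5 CPM added, was 3.94 for the lower genes, -1.78 for the higher genes and 1.21 for all genes. These libraries came from the same livers, and the methods describe a single cytoplasmic extraction for poly(A) and total libraries. A gene low in CT is thus likely to be low in cytoplasmic poly(A) RNA too, so these shares are not independent of the calls.

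**Figure D1:**
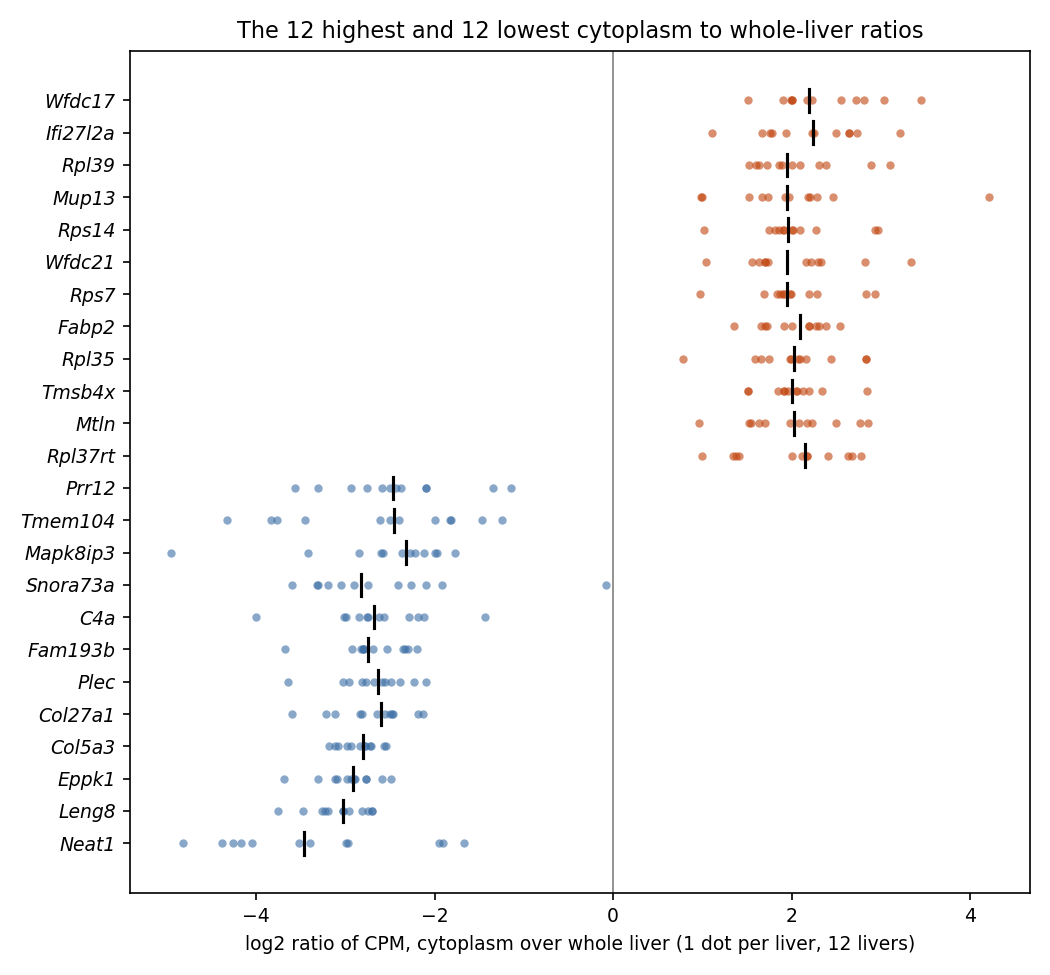
Log2 ratio of CT over UT (x axis) in each of 12 livers (dots, with the median as a black mark) for the 12 genes with the highest and the 12 with the lowest ratio among those of at least 10 CPM that had the same sign in all livers, pseudogenes and unnamed gene models left out. The fitted ratio was 2.36 for Wfdc17 at the top and -3.34 for Neat1 at the bottom, and every dot lies on the same side of 0 as its gene.

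Of the listed nuclear long non-coding RNAs more were lower than higher in CT, and Neat1 had the lowest ratio of all genes that met the rule for naming. It builds paraspeckles, where some edited RNAs are held. Neat1 was at 19.6 to 122 CPM in CT (median 44.2) and at 211 to 942 CPM in UT (median 542), with no overlap (log2 ratio -3.34, standard error 0.28, adjusted p = 8.91e-09, edgeR). Malat1, which sits in speckles where splicing factors gather, was at 655 to 2544 CPM in CT (median 1192) and at 4937 to 6577 CPM in UT (median 5651). Its log2 ratio was -2.20 ± 0.17 (SE, 12 livers). Both lay lower in CT in all 12 livers, yet neither was absent from it. Firre, an X-linked RNA bound to nuclear matrix factors, had a log2 ratio of -2.27, and Snhg11 one of -2.42. Of 10 listed RNAs tested, 5 were called lower and none higher, and all 5 had no overlap between the fractions. Of all genes 9.14% lay lower in CT without overlap. The median was -1.81, against -0.03 for all genes. Dleu2 and Tug1, also on the list, had log2 ratios of 0.97 and 0.28, and the second missed an adjusted p of 0.01 (adjusted p = 0.0197, edgeR).

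Small nucleolar and Cajal body RNAs were mostly lower in CT among those that could be tested. Of the listed RNAs, 35 passed the filter on low counts, of which 24 were called lower and 1 higher, with a median log2 ratio of -1.84. Most listed members did not pass it and are not described, and since the filter can pass an RNA through 1 fraction alone, these counts do not speak for the whole list. Snord21, the C/D RNA shown above, was at 0 to 1.05 CPM in CT (median 0.586) and at 2.45 to 8.46 CPM in UT (median 6.28). The fractions did not overlap, and the log2 ratio was -3.71 ± 0.27 (SE). Its host mRNA Rpl5, made from the same primary transcript, went the other way with 15.4 to 35.5 CPM in CT and 10.1 to 16.2 CPM in UT (log2 ratio 0.97). Snord99 had 0 to 1.04 CPM in CT and 1.36 to 3.46 CPM in UT (log2 ratio -3.13), while the ratio of its host Snhg12 was -0.09 and did not pass the test (adjusted p = 0.58, edgeR).

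The H/ACA RNAs shown above both had their highest CT level in ZT0 replicate 2. Snora73a was at 4.2 to 47.1 CPM in CT (median 6.39) and at 38.6 to 62.8 CPM in UT (median 44.7). The 47.1 CPM came from ZT0 replicate 2 and the next CT library had 11.1, and the log2 ratio was -2.56 with and -2.8 without that liver. Snora73b, identical to it at 198 of 205 bases so that reads may be split between both, had a log2 ratio of -1.91. Snora78 was at 1.06 to 16.3 CPM in CT (median 1.85) and at 7 to 12.5 CPM in UT (median 8.68), a log2 ratio of -1.84. The host Snhg3 of Snora73a was higher in CT in all 12 livers (log2 ratio 0.88). Scarna2, a Cajal body RNA, had 44.6 to 209 CPM in CT and 91.1 to 145 CPM in UT and did not pass the test (log2 ratio -0.14, adjusted p = 0.445, edgeR). Scarna3a was the 1 member called higher, at a low mean level (1.55 to 7.01 CPM in CT, 0.897 to 2.28 CPM in UT, log2 ratio 1.18).

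Other short RNAs without a poly(A) tail lay on the opposite side. Rmrp, the RNA of the RNase MRP enzyme that processes ribosomal RNA, was at 290 to 2966 CPM in CT (median 693) and at 226 to 434 CPM in UT (median 323), higher in CT in all 12 livers (log2 ratio 1.29 ± 0.19, SE). The highest levels, 2970 and 2580 CPM, were in the shallow CT libraries ZT0 replicate 2 and ZT4 replicate 2, and the other 10 lay between 290 and 774. Without either of these livers the log2 ratio of Rmrp was 1.16 or 1.18. Rnu12 was at 12.1 to 202 CPM in CT (median 63.4) and at 16.7 to 31 CPM in UT (median 21.5), higher in 11 of 12 livers, with its highest CT levels in the same 2 libraries (log2 ratio 1.58 ± 0.26, SE). Rnu11, its partner in the minor spliceosome, had a log2 ratio of 1.78 at a low level (median 1.46 CPM in CT and 0.496 CPM in UT). Terc, the telomerase RNA, had 5.45 to 19.8 CPM in CT and 3.76 to 7.8 CPM in UT (log2 ratio 0.82). All 4 tested members of this list were higher at any fold, 3 of them with a ratio above 1.

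**Figure D2:**
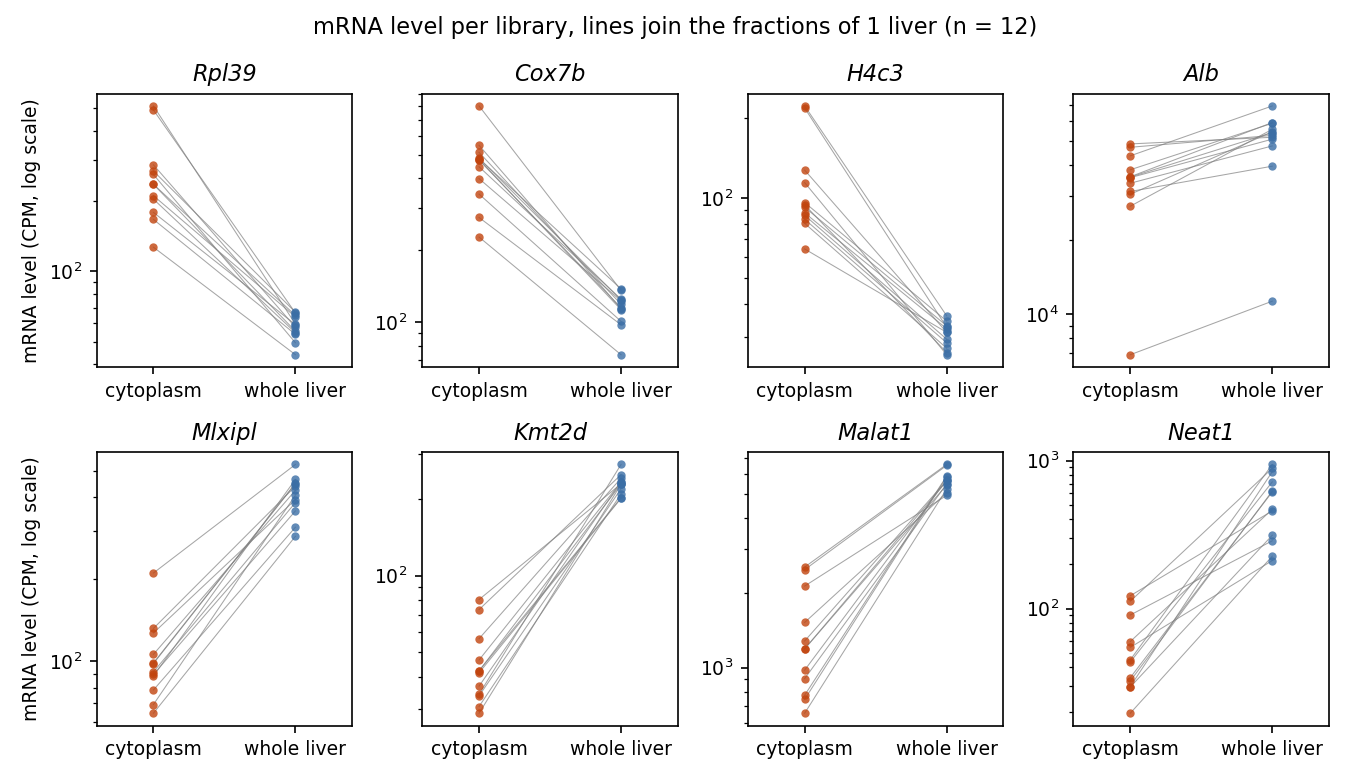
Level in CPM (log axis) in CT (left) and UT (right) of each of 12 livers, with lines joining the fractions of 1 liver, for single genes named above each panel. Malat1 has 655 to 2544 CPM in CT and 4937 to 6577 in UT, and Rpl39 127 to 511 in CT and 44 to 66.9 in UT.

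Replication-dependent histone mRNAs, which end in a stem-loop in place of a poly(A) tail, were higher in CT. H4c3 was at 64.3 to 221 CPM in CT (median 93.1) and at 25.8 to 36.1 CPM in UT (median 31.3), with no overlap and a log2 ratio of 1.79 ± 0.13 (SE). Its highest CT levels, 221 and 217 CPM, were in the shallow libraries ZT0 replicate 2 and ZT4 replicate 2, and the next had 127. Of 52 histone genes tested 23 were called higher and none lower, and 40 were higher at any fold, with a median of 0.94. Histone genes are near-identical copies, so that reads can be split between members.

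Unspliced RNA was the largest loss. Of all counts of a library, 4.22% ± 1.43 lay on pre-mRNA in CT and 25.2% ± 1.04 in UT (mean ± SD, n = 12 livers each). The share was lower in CT in all 12 livers (exact sign-flip permutation test over livers, two-sided p = 0.000488, the smallest 12 pairs can give, adjusted over 12 classes p = 0.000977). The highest CT share, 7.95%, belonged to the ZT4 replicate 1 liver. Scaled by the mRNA of each library, 9343 of 9665 pre-mRNAs tested were lower in CT (96.7%) and 16 were higher (0.166%), with a median log2 ratio of -3.02. This median is deeper than that of any mRNA list. It depends on scaling by mRNA: with TMM factors from pre-mRNA itself the median was -0.12, with 712 higher and 523 lower.

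Transcripts annotated with a retained intron were also reduced among the mRNA counts, at 1.32% ± 0.104 in CT and 1.97% ± 0.0719 in UT, lower in all 12 livers (adjusted p = 0.000977, exact permutation test). Among 1190 genes with 200 or more counts on average and a mean share of at least 5% over both fractions, a filter chosen after seeing the data, the mean share was lower in CT for 887 and higher for 283. It was higher in CT in none of the 12 livers for 387 of them and in all 12 for 52, and the median share was 9.07% in CT and 15.1% in UT. The following were chosen after their values were seen. Akap8, which encodes a nuclear scaffold protein, had 8.97% ± 8.16 of its counts on retained-intron isoforms in CT and 90.2% ± 9.14 in UT (SD, n = 12). Srsf7, an SR splicing factor gene, had 7.84% ± 4.46 in CT and 43.4% ± 9.29 in UT, and Clk4, which encodes a kinase of SR proteins, 19.2% ± 8.95 in CT and 41.1% ± 2.57 in UT. Each was lower in CT in all 12 livers. The sum over isoforms moved less: the gene-level log2 ratio was -0.87 for Akap8, -0.24 for Srsf7 and -0.41 for Clk4.

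Other transcript classes differed by fewer percentage points, though some by a larger ratio. Long non-coding transcripts held 0.364% of mRNA counts in CT and 0.799% in UT, lower in all 12 livers (adjusted p = 0.000977, exact permutation test), but their difference was of the opposite sign after division by length (0.0744 percentage points, p = 0.345, exact permutation test). Small nucleolar RNA transcripts held 0.0275% in CT and 0.0479% in UT, lower in 10 of 12 livers (adjusted p = 0.0026, same test). Transcripts subject to nonsense-mediated decay held 1.55% in CT and 1.65% in UT (adjusted p = 0.00937). Pseudogene transcripts, whose reads may come from their parent genes, held 0.619% ± 0.379 in CT and 0.173% ± 0.0694 in UT and were higher in 11 of 12 livers (adjusted p = 0.00167). This class holds Mup-ps17, a copy in the Mup family, which alone was at 173 to 13501 CPM in CT (median 2660) and at 0.297 to 2140 CPM in UT (median 2.86), with its highest CT level in the ZT12 replicate 1 liver, where the class was highest too (1.48%). Small nuclear RNA transcripts held 0.0184% in CT and 0.0061% in UT, higher in 11 of 12 livers (adjusted p = 0.0022, exact permutation test). Protein coding transcripts held 92.4% in both, with a difference of -0.0792 ± 0.708 percentage points (SD of 12 differences, exact p = 0.715).

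SR protein and speckle genes were lower in CT more often than higher. Leng8, a speckle-associated gene, was at 7.08 to 14.3 CPM in CT (median 9.66) and at 67.5 to 110 CPM in UT (median 84.7), the lowest ratio of any protein coding gene that met the naming rule (log2 ratio -3.07 ± 0.09, SE, adjusted p = 3.5e-13, edgeR). The gap between the highest CT and the lowest UT library was wider than either range. Ccnl2, a cyclin of the splicing kinases, had a log2 ratio of -1.75, and Clk2, another SR protein kinase, one of -2. Of 29 SR protein and speckle genes 11 were called lower and none higher, with a median of -0.62. Srsf10 and Tra2b were among the 4 higher at any fold, with log2 ratios of 0.7 and 0.34, and the smaller of them did not pass with library size alone.

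Chromatin modifiers were lower almost throughout. Kmt2d, a histone H3 lysine methyltransferase, was at 28.8 to 80.5 CPM in CT (median 41.8) and at 201 to 273 CPM in UT (median 229), with no overlap (log2 ratio -2.39 ± 0.12, SE). Its relative Kmt2b had a log2 ratio of -1.97. Of 45 genes of this list 17 were called lower and none higher, and 43 were lower at any fold. The list is made of long transcripts, with a median of 5362 nt, and its median log2 ratio of -0.85 stands beside -0.46 for all genes of that length.

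Mlxipl, which encodes the glucose-responsive factor ChREBP, was at 64.4 to 211 CPM in CT (median 94.8) and at 288 to 529 CPM in UT (median 417), lower in CT in all 12 livers with no overlap (log2 ratio -2.02 ± 0.09, SE, adjusted p = 1.6e-11, edgeR). It belongs to a list of 6 liver mRNAs chosen as nuclear-biased, some of them described so in the text of the study of these livers. The list is not independent evidence. Of its members 3 were called lower and all 6 were lower at any fold. Nlrp6, an inflammasome sensor gene, had a log2 ratio of -1.37 and Gckr, which encodes the glucokinase regulator, one of -0.99. Plec and Eppk1, a pair of neighbouring genes for very large cytoskeletal linkers, had log2 ratios of -2.69 and -2.96. Eppk1 was at 12 to 48.5 CPM in CT and at 154 to 297 CPM in UT. Fam193b, Mapk8ip3, Tmem104 and Prr12 were also among the 12 lowest, with log2 ratios of -2.66, -2.52, -2.48 and -2.4. C4a, a complement gene, had one of -2.63, and its reads can be split with its close copy C4b (log2 ratio -1.33).

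Collagen and matrix genes, expressed mainly outside hepatocytes, were lower in CT as a list. Col5a3 was at 5.6 to 13.5 CPM in CT (median 8.42) and at 34.3 to 89.6 CPM in UT (median 63.1), a log2 ratio of -2.86 ± 0.07 (SE). It is also a member of the list of nuclear-biased liver mRNAs above, where it had the lowest ratio too, so it counts in both lists. Col27a1 had 2.5 to 30.7 CPM in CT and 14.4 to 169 CPM in UT, so that the libraries overlapped although the ratio was below 0 in every liver (log2 ratio -2.7). Lama5, a laminin gene, had a log2 ratio of -2.42. Of 29 tested 15 were called lower and none higher, with a median of -1.03. Dcn, the decorin gene of stellate cells and fibroblasts, had 73 to 146 CPM in CT and 48.5 to 105.8 CPM in UT and was higher in 11 of 12 livers (log2 ratio 0.53).

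Marker genes of the other liver cell types differed in direction. The 9 endothelial markers summed to 198 to 576 CPM in CT (median 255) and to 426 to 705 CPM in UT (median 565), and 4 of them were called lower. Stab2, an endothelial scavenger receptor gene, had a log2 ratio of -1.45 and Kdr, a VEGF receptor gene, one of -1.06. Clec4g, of the same cells, did not pass the test (log2 ratio 0.14, adjusted p = 0.204, edgeR). The 10 Kupffer cell markers summed to 229 to 1260 CPM in CT (median 366) and to 273 to 858 CPM in UT (median 358), and none was called. Vsig4 and C1qb were higher at any fold with log2 ratios of 0.88 and 0.42, and Csf1r was lower (log2 ratio -0.57). Stellate cell markers summed to 262 to 571 CPM in CT and to 294 to 633 CPM in UT, with 2 of 9 called lower, among them Col1a1 (log2 ratio -1.09), while Lrat, the retinol-esterifying enzyme gene, was at 0.74. The part of cell type makeup in the ratios above was not tested.

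Of 5 red cell markers 2 were called higher in CT and none lower, and 2 did not pass the test at any fold. Hbb-bt, a beta globin gene, was at 30.3 to 258 CPM in CT (median 95.3) and at 9.14 to 119.3 CPM in UT (median 32.1), higher in all 12 livers with a log2 ratio of 1.4. Hbb-bs had a ratio of 1.11 and was higher in 10 of 12 livers, and Hba-a1 one of 0.27 that did not pass the test (adjusted p = 0.194, edgeR). The globin genes are close copies whose reads may be shared.

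Cytosolic ribosomal protein genes were nearly all higher in CT. Rpl39, a protein of the large ribosomal subunit, was at 127 to 511 CPM in CT (median 236) and at 44 to 66.9 CPM in UT (median 58.4), with every CT library above every UT library (log2 ratio 2.08 ± 0.13, SE, adjusted p = 2.94e-10, edgeR). The highest CT levels, 491 and 511 CPM, came from the shallow libraries ZT0 replicate 2 and ZT4 replicate 2, and the log2 ratio of Rpl39 was 2.01 or 1.99 without them. Rps14, Rps7 and Rpl35 had log2 ratios of 2.04, 2.04 and 2.02, all with no overlap. Of 83 cytosolic ribosomal protein genes 67 were called higher, 82 were higher at any fold and none was lower. In 75 of them every CT library lay above every UT library, as in 9.8% of all genes. Together they held 2.76% ± 0.619 of mRNA counts in CT and 1.13% ± 0.0693 in UT, higher in 12 of 12 livers (adjusted p = 0.000977, exact permutation test).

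Translation factors lay on both sides. Eef1b2, a subunit of the elongation factor 1 exchange complex, was at 182 to 587 CPM in CT (median 267) and at 81.5 to 107.02 CPM in UT (median 96.5), a log2 ratio of 1.62. Eif3e and Tpt1 had log2 ratios of 1.51 and 1.4. The long scaffold genes Eif4g3 and Eif4g1 were lower in all 12 livers, with log2 ratios of -0.99 and -0.7 and no overlap between the fractions. Of 37 factors 24 were higher and 5 lower at any fold, beside 32.9% and 35.5% of all genes.

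Nuclear-encoded genes of the respiratory chain and of the mitochondrial ribosome were mostly higher in CT as well. Cox7b, a subunit of cytochrome c oxidase, was at 227 to 800 CPM in CT (median 477) and at 73.3 to 138 CPM in UT (median 117.05), a log2 ratio of 1.94 ± 0.08 (SE) with no overlap. Atp5j2, of ATP synthase, and Cox6c had log2 ratios of 1.93 and 1.85. Sdha, the large subunit of succinate dehydrogenase, had 191 to 420 CPM in CT and 246 to 461 CPM in UT (log2 ratio -0.22). Of 81 respiratory chain genes 37 were called higher and none lower, and of 79 mitochondrial ribosomal protein genes 23 were called higher and none lower. Their medians were 0.9 and 0.69, beside 0.63 for all genes of their length (70 to 1206 nt). Of all genes of that length 27.9% were called higher, beside 45.7% of the first list and 29.1% of the second. Enzymes of the mitochondrial matrix, a list of longer transcripts, had a median of 0.05, a size whose sign depends on the scaling. At any fold 11 of 33 were higher and 12 lower, close to the shares of all genes (32.9% and 35.5%).

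Proteasome subunit genes had a median of 0.62, with 6 of 37 called higher and none lower. Psmc6, an ATPase of the regulatory particle, and Psma2, of the core, had log2 ratios of 1.34 and 1.31, whereas Psmd3 was lower at any fold (log2 ratio -0.5). Among other short genes at the upper end, Tmsb4x, an actin-binding peptide gene, was at 107.7 to 396 CPM in CT (median 208) and at 35.8 to 101.99 CPM in UT (median 52.3). Tmsb4x and its relative Tmsb10 were the only called members of 17 actin and tubulin genes, with log2 ratios of 2.02 and 1.15. Actb itself was at 524 to 1600 CPM in CT and at 766 to 1282 CPM in UT and did not pass the test (log2 ratio -0.14, adjusted p = 0.101, edgeR), and its sign changed when scaled to mRNA and pre-mRNA together. Wfdc17, Ifi27l2a, Wfdc21, Fabp2, Mtln and the ribosomal gene copy Rpl37rt were also among the 12 highest once pseudogenes were left out, with log2 ratios of 2.36, 2.25, 2.04, 2.03, 2.02 and 2.02.

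**Figure D3:**
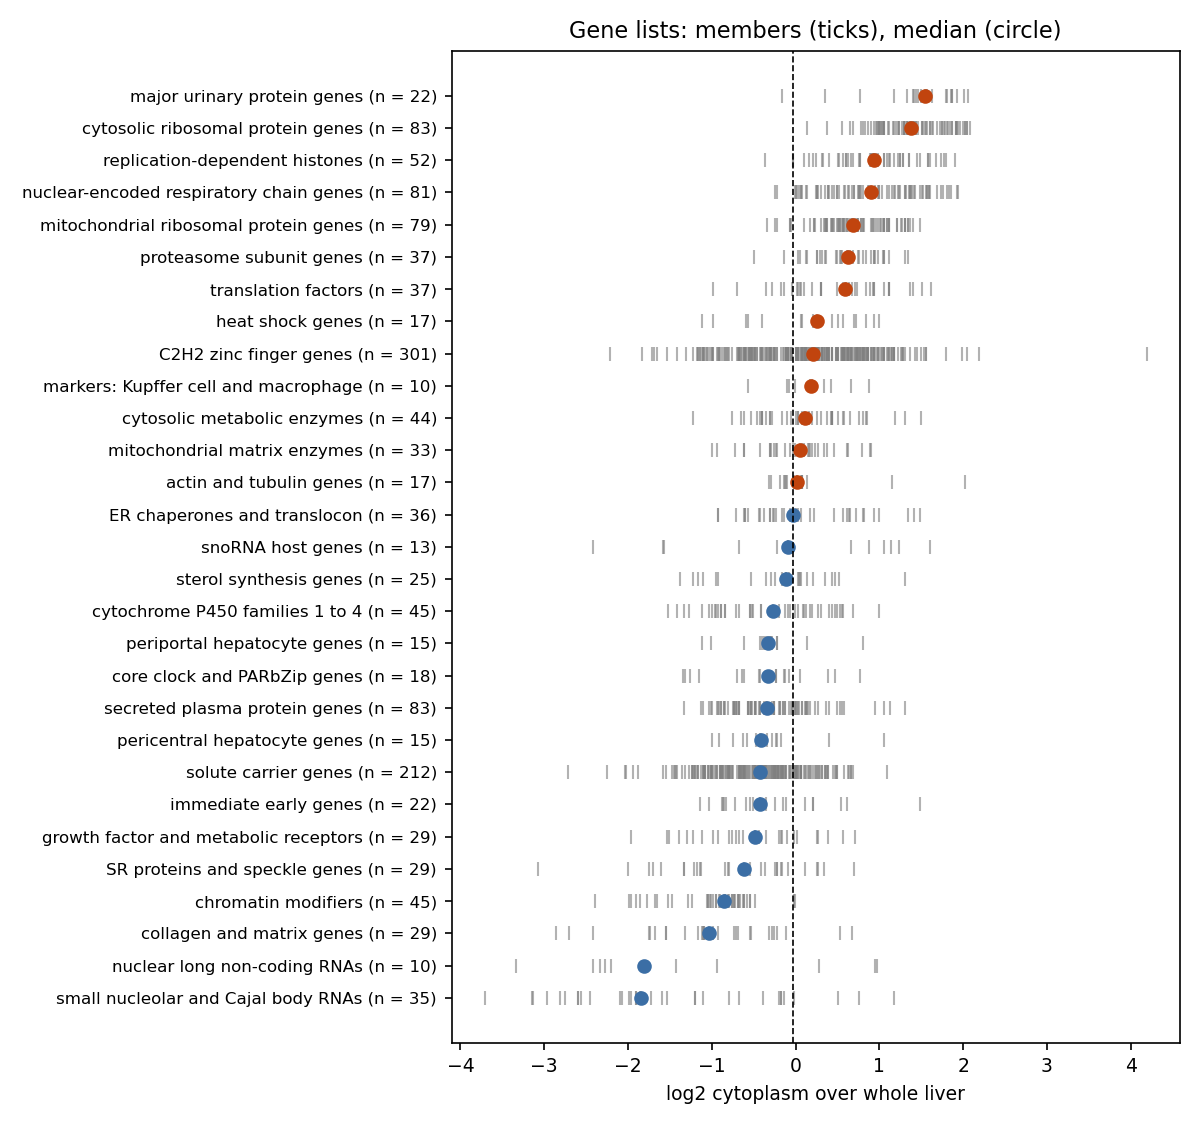
Log2 ratio of CT over UT for the tested members (grey ticks) of the gene lists with at least 10 of them, with the median as a circle (red above 0, blue below 0) and the median of all genes as a dashed line at -0.03. Lists run from major urinary proteins (median 1.55) to small nucleolar and Cajal body RNAs (median -1.84), and most span both signs.

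Messages for secreted proteins did not move as 1 group. Major urinary protein (Mup) genes, which encode pheromone carriers, were higher in CT: Mup2 was at 318 to 12163 CPM in CT (median 6511) and at 98.7 to 2099 CPM in UT (median 1593), higher in all 12 livers (log2 ratio 2.01 ± 0.19, SE). The lowest value in each fraction came from the ZT4 replicate 1 liver, and without it and ZT0 replicate 2 the log2 ratio of Mup2 was 1.86. Of 22 Mup genes 18 were called higher and none lower, and together they held 18.1% ± 5.23 of mRNA counts in CT and 6.94% ± 2.05 in UT, higher in 12 of 12 livers (adjusted p = 0.000977, exact permutation test). Mup genes are near-identical copies, so single members are uncertain.

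The other secreted plasma proteins lost share. As a group they held 18.6% ± 3.5 of mRNA counts in CT and 25.4% ± 2.75 in UT, lower in all 12 livers (adjusted p = 0.000977, exact permutation test). This share and that of the Mup genes are parts of the same total, so a rise of 1 lowers the other. The size of that part was not tested. Alb was at 6871 to 48736 CPM in CT (median 35707) and at 11294 to 69301 CPM in UT (median 53379), lower in all 12 livers although the ranges overlapped (log2 ratio -0.57 ± 0.08, SE, adjusted p = 8.69e-06, edgeR). C3, the central complement component, and Apoe had log2 ratios of -1.13 and -1.11. Some members went the other way: Apoc1 was at 3968 to 11758 CPM in CT and at 1826 to 2621 CPM in UT (log2 ratio 1.31), and Fgl1, a fibrinogen-related factor, had a log2 ratio of 1.13. In the ZT0 replicate 2 liver Fgl1 was at 467 CPM in CT and 75.2 in UT (log2 ratio 2.63). It did not pass without the liver as a block, with fraction alone (adjusted p = 0.0889, edgeR) or with time as a factor (adjusted p = 0.0174, edgeR). Of 83 genes 6 were called lower (7.23%) and 3 higher (3.61%), both under the shares of all genes (9.97% and 7.36%). At any fold 44 were lower and 10 higher, beside 35.5% and 32.9% of all genes.

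Receptor and solute carrier genes were lower in CT more often than higher. Lrp1, a large endocytic receptor, was at 410 to 1386 CPM in CT (median 625) and at 1979 to 4776 CPM in UT (median 2485), a log2 ratio of -1.97 ± 0.08 (SE) with no overlap. Notch1 and the bile acid signal receptor gene Fgfr4 had log2 ratios of -1.53 and -1.51, whereas Ghr, the growth hormone receptor gene, was higher in all 12 livers (log2 ratio 0.39). Of 29 receptor genes 7 were called lower and none higher. Of 212 solute carrier genes 39 were called lower and 1, Slc25a46, higher, with a median of -0.43. Slc12a7, a potassium chloride cotransporter, had a log2 ratio of -2.03.

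Lists of hepatocyte metabolism lay near the middle. Of 45 cytochrome P450 genes 6 were called lower and none higher, and of 36 genes of the endoplasmic reticulum 3 were called higher and none lower. These shares are 13.3% and 8.33%, beside 9.97% of all genes lower and 7.36% higher. Their medians were -0.27 and -0.03, the second of a size whose sign depends on the scaling. Srp9 and Ost4, short proteins of protein targeting and glycosylation, had log2 ratios of 1.48 and 1.34, and the chaperone Calr one of -0.93. In sterol synthesis Idi1 was at 90.4 to 530 CPM in CT and at 40.5 to 207 CPM in UT (log2 ratio 1.31), while the sterol factor gene Srebf1 had a log2 ratio of -1.38. Among cytosolic enzymes Akr1c6, Fabp1 and Tdo2 had log2 ratios of 1.5, 1.31 and 1.19, and Fasn, the long fatty acid synthase gene, one of -1.22. Periportal and pericentral genes had medians of -0.33 and -0.41, and Arg1 and Rgn stood above the rest of their lists with log2 ratios of 0.8 and 1.05, against -1.12 for Cyp2f2 and -1 for Cyp1a2.

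Clock and immediate early genes were more often lower than higher in CT at any fold, each with members on both sides. Per1 and Per2, repressors of the clock, were lower in CT in all 12 livers with log2 ratios of -1.34 and -1.32. Clock, Rora and Nr1d2 were higher, with log2 ratios of 0.47, 0.39 and 0.77. In the ZT0 replicate 2 liver, whose CT library stood apart, Nr1d2 was at 96.2 CPM in CT and 11.7 in UT (log2 ratio 3.02). Clock was at -0.47 and Per2 at -2.87 in that liver. Without the liver as a block Nr1d2, Clock, Per1 and Per2 did not pass (adjusted p = 0.14, 0.0278, 0.0143 and 0.0107, edgeR). Of 18 clock and PARbZip genes 4 were called lower and none higher. At any fold 9 were lower and 3 higher, beside 35.5% and 32.9% of all genes. Arntl, the BMAL1 gene, was at 0.595 to 31.9 CPM in CT and at 0.873 to 34.8 CPM in UT, a range set by the time of day (log2 ratio -0.23, adjusted p = 0.00668, edgeR). It did not pass without any one of 5 livers (ZT0 replicate 2, ZT4 replicate 1, ZT16 replicate 1, ZT16 replicate 2 or ZT20 replicate 2), where its adjusted p was 0.0103 to 0.0163 (edgeR). Of 22 immediate early genes 11 were lower and 1 higher at any fold, with a median of -0.43. Among them Zfp36, which encodes an RNA decay factor, had a log2 ratio of -1.14, Egr1 one of -0.87 and Klf6 one of 0.54. Heat shock genes had a median of 0.25, with Hspe1 and Hsp90aa1 at 1 and 0.94 and Hspa1b at -1.12.

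The largest protein family tested, the C2H2 zinc finger genes, had members at both ends. Of 301 genes 35 were called higher and 23 lower (11.6% and 7.64%, beside 7.36% and 9.97% of all genes), with a median of 0.21, no larger than the shift between scalings given above. Zfp955a was at 9.98 to 20.7 CPM in CT and at 4.63 to 8.32 CPM in UT (log2 ratio 1.36), and Zfp958 had a log2 ratio of 1.42. Zfp335 was at 0 to 21.5 CPM in CT (median 4.82) and at 22 to 32.2 CPM in UT (median 26.3), with no overlap (log2 ratio -2.22), and Zfp142 had a log2 ratio of -1.83. Zfp969, named because it was the extreme of the list after its values were seen, was at 2.99 to 21.8 CPM in CT and 0 to 1.27 CPM in UT, and reads of such genes may be split between close copies. Among the host genes of small nucleolar RNAs, whose spliced RNA is short, Snhg6, Snhg8 and Gas5 had log2 ratios of 1.6, 1.23 and 1.05, and Snhg17 one of -1.57.

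Across all genes the ratio followed the length and base composition of the transcript. In 6 bins of equal gene number the median log2 ratio was 0.63 in the shortest transcripts (70 to 1206 nt), then 0.17, -0.05, -0.16 and -0.25, and -0.46 in the longest (4114 to 19732 nt). Of the shortest bin 27.9% were called higher and 3.66% lower, and of the longest 0.574% higher and 19.5% lower. By GC content the medians were 0.55 in the lowest bin, then 0.21, -0.04, -0.19 and -0.36, and -0.59 in the highest. Spearman's rho across 11484 genes was -0.44 with transcript length and -0.49 with GC content, and 0.07 with the mean level. Length and GC content were themselves only weakly related (rho -0.15). Genes share libraries and are not replicates, so no p is given. With genes split by length and by GC content into 3 equal groups each, short transcripts of low GC content had a median of 0.79 (1038 genes) and long ones of high GC content -0.96 (1016 genes), whereas short ones of high GC content were at 0.09.

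The lists above differ in length, so their medians stand beside those of all genes of their length bin. Cytosolic ribosomal protein genes had a median length of 563 nt and a median log2 ratio of 1.38, against 0.63 for that bin. Collagen and matrix genes had 5639 nt and -1.03, against -0.46. Small nucleolar and Cajal body RNAs, with a median of 131 nt, had -1.84 against 0.63, so their median lay below 0 where that of their length bin lay above it. Solute carriers, at -0.43 against -0.16, and secreted proteins, at -0.34 against -0.05, were each below their bin. Mitochondrial ribosomal protein genes, at 0.69 against 0.63, lay close to theirs.

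**Figure D4:**
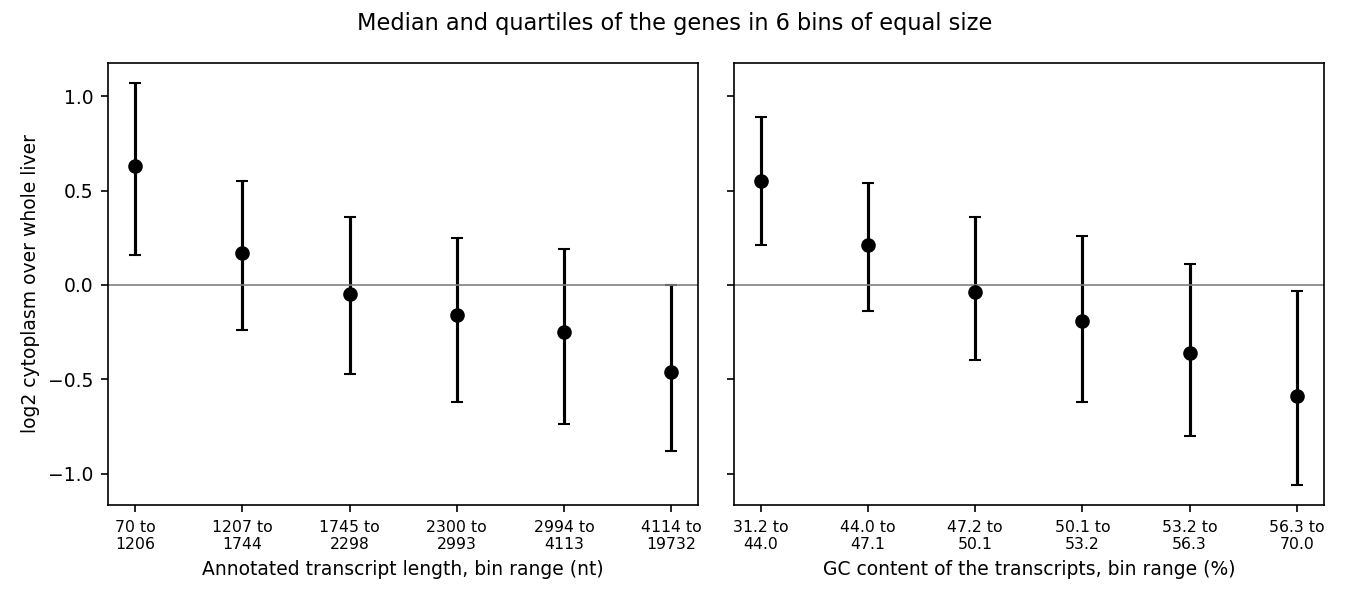
Median (point) and quartiles (bar) of the log2 ratio of CT over UT in 6 bins of equal gene number, by annotated transcript length in nt (left) and GC content in percent (right). The medians run from 0.63 to -0.46 over length and from 0.55 to -0.59 over GC content.

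The ratio of CT to UT was tested for a dependence on the time of day. At an adjusted p under 0.05, 1 of 11521 genes was called (0.00868%) by edgeR's quasi-likelihood test of a 24 h curve in the ratio, and 1499 had an unadjusted p under 0.05. The gene, Mug-ps1, is a transcribed pseudogene of the murinoglobulin family, whose reads may be shared with its relatives. Its mean log2 ratio was -1.09, -0.8 and -0.49 at ZT0, ZT4 and ZT8, 0.45 and 0.75 at ZT12 and ZT16, and -0.61 at ZT20 (2 livers each, adjusted p = 0.0373, edgeR). No gene was called when any one liver other than ZT4 replicate 1 was left out, nor with the 6 times as a factor. DESeq2's likelihood ratio test called 175 genes on the same counts. It gave no adjusted p for 7818 of the genes, so its adjustment covered fewer genes than that of edgeR. On simulated counts of these libraries, 200 genes were given a 24 h cosine in the log2 ratio, from 1 below to 1 above its mean. Of them 85% were recovered. Peaks were set at ZT0 or ZT12 only, and smaller changes were not simulated.

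In CryKO livers Mup and ribosomal protein genes again had the highest medians of the lists with at least 10 members, and small nucleolar RNAs the lowest, but the upper medians were closer to 0. Fitted alone, 62 of 11568 genes were higher in CT (0.536%) and 631 lower (5.45%). Cytosolic ribosomal protein genes had a median log2 ratio of 0.67 in CryKO and 1.38 in WT, Mup genes 0.68 and 1.55, and respiratory chain genes 0.54 and 0.9. Small nucleolar and Cajal body RNAs had -2.96 in CryKO and -1.84 in WT. Chromatin modifiers had -0.51 in CryKO and -0.85 in WT, and collagen and matrix genes -1.17 and -1.03. Rpl39 had a log2 ratio of 0.89 in CryKO and 2.08 in WT, Mlxipl -1.6 and -2.02, Malat1 -2.27 and -2.2, and Rmrp -0.24 and 1.29. By share of mRNA counts, ribosomal protein genes held 1.89% in CT and 1.19% in UT of CryKO livers, and Mup genes 8.54% and 5.38%. Pre-mRNA held 4.61% ± 0.759 in CT and 29.8% ± 5.25 in UT.

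The difference between genotypes passed an unadjusted p under 0.05 for 5392 of 11544 genes, but few of them differed by more than a log2 of 1. Of all genes tested, 24 had a higher ratio of CT to UT in CryKO than in WT (0.208%) and 171 a lower one (1.48%), by the interaction of genotype and fraction in edgeR at an adjusted p under 0.01 and a difference above 1. Wfdc17, a secreted whey acidic protein gene of myeloid cells, had log2 ratios of 0.27 to 1.1 in CryKO livers and 1.55 to 3.47 in WT livers, with no overlap. Snord22 had -2.94 to -1.68 in CryKO and -1.68 to 1.77 in WT, which fail to overlap only in the third decimal. Without the ZT0 replicate 2 and ZT4 replicate 1 livers of WT 0.918% of genes had a lower ratio. With 1 liver left out, 0.13% to 0.433% had a higher one. The sources used here do not say whether the libraries of both genotypes were prepared together, so genotype and preparation cannot be told apart.

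**Figure D5:**
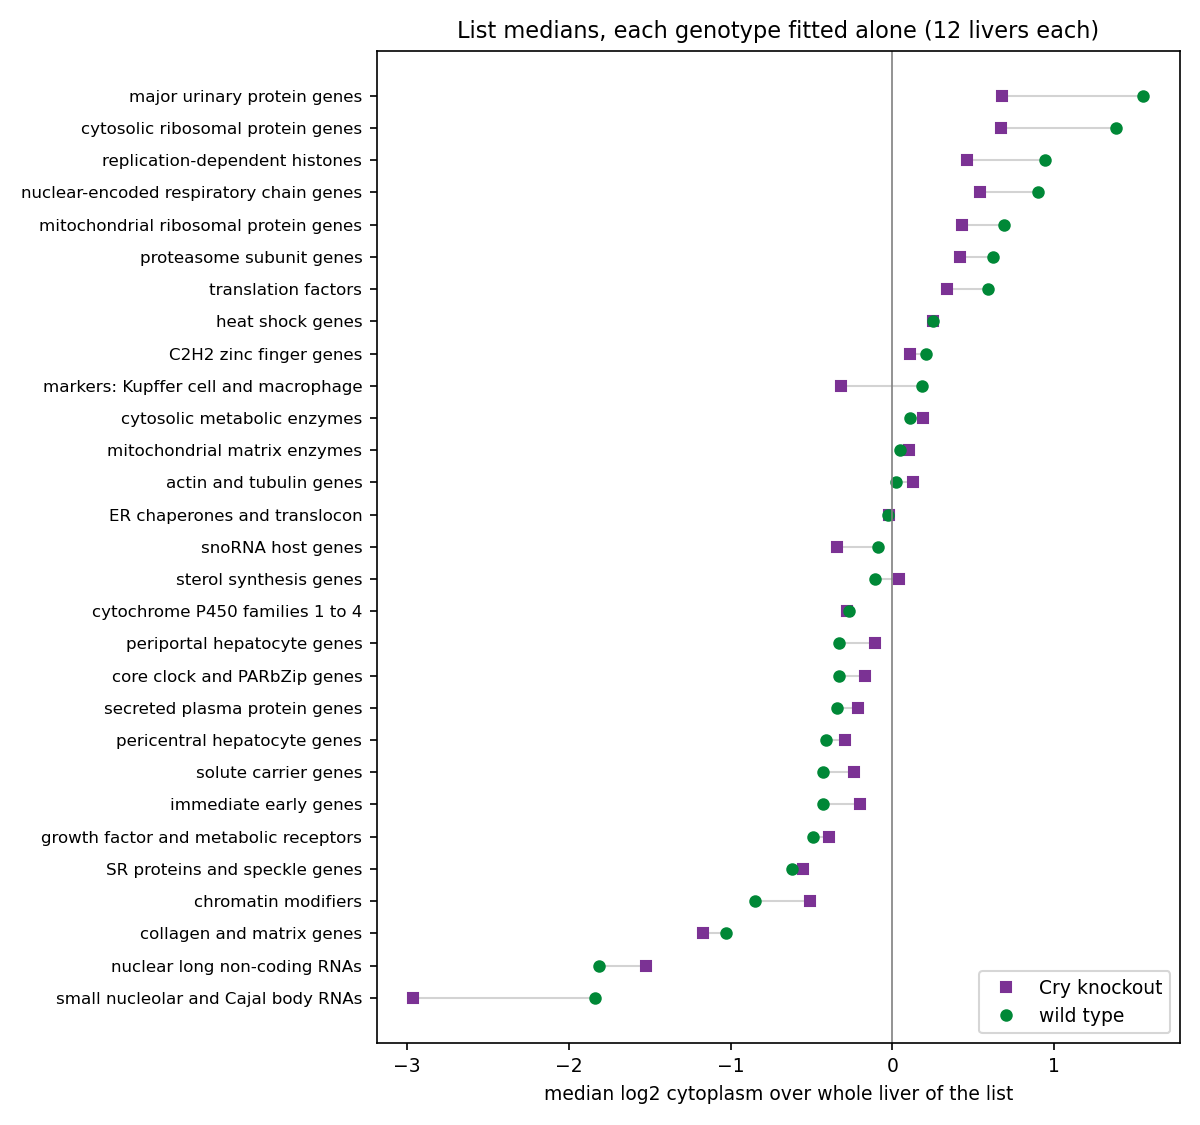
Median log2 ratio of CT over UT of the same gene lists in CryKO livers (squares) and WT livers (circles), each genotype fitted alone with 12 livers. Ribosomal protein genes are at 0.67 in CryKO and 1.38 in WT, and small nucleolar and Cajal body RNAs at -2.96 and -1.84.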

How the data were processed

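Total RNA of 12 cytoplasmic and 12 unfractionated libraries of WT liver, and as many of CryKO liver, was sequenced as single reads. The authors deposited estimated counts per gene for mRNA and for pre-mRNA, made with kallisto 0.46.0 on GRCm38 (mm10) transcripts together with unspliced and rat sequences. These counts were rounded. Rows that shared a gene and its values were merged, leaving 12252. The main test was edgeR 4.0.16 (R 4.3.3, limma 3.58.1) with TMM factors, the liver as a block, a minimum of 10 counts in 12 libraries per gene (24 for both genotypes) and Benjamini-Hochberg adjustment. DESeq2 1.42.0 was an alternative, as were other scalings, filters and leaving out each liver. Shares of counts were compared with an exact permutation test over livers. Genes were named by rule: the 12 highest and 12 lowest of at least 10 CPM with 1 sign in all 12 livers, pseudogenes and unnamed models left out, up to 3 at either end of each list of at least 5 CPM, and 6 fixed genes. The members and lists were chosen with earlier results of these data known. On simulated counts for the main comparison, 92% of 112 genes changed by a log2 of 1 passed the adjusted p. The minimum fold of the calls was not applied there, so this is not the share that would be called. Same-numbered CT and UT libraries were taken to come from the same animal. The labels give a replicate number and the methods 2 mice per time, but neither states that the number marks the animal. The correlation between same-numbered libraries of their deviations from the group means was 0.0631 to 0.544 over the 6 times in WT. In CryKO it was -0.277 at ZT0 and 0.171 to 0.434 at the other times, and the pairing was kept. Precision is limited by 2 livers per time and by the lower depth of CT (6.8 to 14.44 M counts). Some genes that the rule names are not reported here.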

Additional observations from a re-analysis of the deposited data

Results flagged for a closer look

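The ratio of CT to UT differed between CryKO and WT livers for 12 named genes by the interaction test of edgeR with Benjamini-Hochberg adjustment, given as the difference of log2 ratios, CryKO minus WT. Higher in CryKO were C4a (1.72, adjusted p = 0.000626), Tmem104 (1.58, adjusted p = 0.000349), Zfp335 (1.32, adjusted p = 0.00822), Zfhx2 (1.15, adjusted p = 0.00141), Bahcc1 (1.11, adjusted p = 0.00102) and Mbd6 (1.09, adjusted p = 0.000191). For C4a the mean was 6.78 CPM in CT and 15.3 in UT of CryKO, against 19.5 in CT and 126 in UT of WT. Mbd6 averaged 15.5 CPM in CT and 28.5 in UT of CryKO, against 13.6 in CT and 49.3 in UT of WT. Zfp335 did not pass without the block (adjusted p = 0.0366, edgeR) and in 10 of the fits that leave out 1 liver (adjusted p = 0.0107 to 0.0156, edgeR), and C4a did not pass without the block (adjusted p = 0.0165, edgeR).

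Lower in CryKO were Mup-ps17 (-8.33, adjusted p = 1.81e-05), Rpl30-ps9 (-4.69, adjusted p = 0.00425), Mup10 (-2.76, adjusted p = 0.00978), Snord22 (-2.05, adjusted p = 1.46e-05), Scarna6 (-1.78, adjusted p = 2.2e-05) and Wfdc17 (-1.78, adjusted p = 3.79e-08). Wfdc17 averaged 20.8 CPM in CT and 13.6 in UT of CryKO, against 38.3 in CT and 7.6 in UT of WT. In WT the shallow CT libraries ZT0 replicate 2 and ZT4 replicate 2 held the highest levels of Snord22 and Scarna6. Snord22 was at 37.9 and 29 CPM in them, with 13.3 in the next CT library. Scarna6 was at 46.7 and 43.8 CPM, with 28.9 in the next. Rpl30-ps9, a pseudogene, was at -0.11 without CryKO ZT16 replicate 1 (adjusted p = 0.838, edgeR). Mup-ps17 and Mup10 are copies of other Mup genes, whose reads may be shared. Mup10 did not pass in 17 of the fits that leave out 1 liver (adjusted p = 0.0116 to 0.0208, edgeR) nor with library size alone (adjusted p = 0.0124, edgeR), and Mup-ps17 did not pass without the block (adjusted p = 0.0563, edgeR). Rpl30-ps9 did not pass by DESeq2 (adjusted p = 0.0533).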

How the results depend on the processing

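Of the WT mRNA calls, 731 higher and 981 lower were kept whichever liver was left out, with totals of 786 to 894 higher and 1090 to 1217 lower. Without the replicate block 876 were higher and 1045 lower, and 20 of 151 named genes lost an adjusted p under 0.01. Higher and lower counts were 36 and 131 at an absolute log2 above 2, 562 and 1598 with library size alone, and 1373 and 688 with mRNA and pre-mRNA library size, where Actb was at 0.06, Scarna2 at 0.05 and Snhg12 at 0.11. With library size alone Clec4g was at -0.02. For time, 0 genes were called without the block, with 6 times as a factor or with library size alone, and 0 to 1 with a liver left out. DESeq2 called 175, with no adjusted p for 7818 genes.

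Between genotypes, of genes tested, 0.0866% were higher without the block, 0.398% by DESeq2 and 0.693% with library size alone, against 0.208%. Leaving out a liver gave 0.13% to 0.433%: 0.433% without WT ZT4 replicate 2, 0.364% without WT ZT8 replicate 1, 0.13% without WT ZT16 replicate 1, 0.32% without WT ZT20 replicate 1, 0.355% without CryKO ZT0 replicate 1 and 0.329% without CryKO ZT16 replicate 1. The lower share, 1.48%, was 1.33% without the block, 0.745% with library size alone, 1.08% with at least 50 counts, 0.918% without both livers that stood apart (chosen after seeing the data) and 1% to 1.69% with a liver left out. Pre-mRNA gave 712 higher and 523 lower with its own TMM. Divided by length, the difference was 0.0744 percentage points for long non-coding and -0.269 for processed transcripts. The second was also below 0, at -0.0309 to -0.0103, without ZT4 replicate 1 (-0.0156), ZT12 replicate 1 (-0.0309), ZT20 replicate 1 (-0.0113) or ZT20 replicate 2 (-0.0103), with a range of -0.0309 to 0.02 over all livers. Protein coding transcripts ranged from -0.177 to 0.0628. The cause was not tested.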
